A study of Mus musculus with 8 samples.

Results

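The 10 genes described here carry or modulate Smad signalling: the receptor-activated transducers Smad2 and Smad3, their common partner Smad4, the inhibitory Smad6 and Smad7, the repressors Ski and Skil, and the target genes Id1, Id2 and Id3. They were taken by symbol from the 38926 symbols of each deposited library, as a set chosen with earlier results of these data known. All 10 passed the filter on low counts that left 16370 genes for testing. Whole bladder tissue of mice was sequenced as polyA RNA in 4 NeMO libraries, from mice with a partial obstruction of the bladder outlet made by an operation that spares the nerves, and in 4 Sham libraries, from mice that had a sham operation. The labels used here give no strain, age, sex or time after operation, and they do not tie libraries to single animals, so a p-value here reflects only the spread among libraries, which may be technical in part. Marks in the submitted file names place NeMO replicates 2 and 4 and Sham replicate 4 in batch 2 and the other libraries in batch 1. No label states a batch, so the term batch here rests on these marks alone.

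Smads relay signals of the TGF-beta superfamily from receptors at the membrane to the nucleus. TGF-beta and activin receptors phosphorylate Smad2 and Smad3, BMP receptors phosphorylate Smad1, Smad5 and Smad9, and each group enters the nucleus with Smad4. Smad6 and Smad7 are transcribed in response to the pathway and restrain it, while Ski and SnoN, the product of Skil, bind Smad complexes on DNA and recruit corepressors. The Id genes are classic BMP targets whose helix-loop-helix proteins lack a DNA-binding region and hold E proteins away from their sites. In the bladder wall these signals are known for their part in matrix production by fibroblasts and in the state of smooth muscle.

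The NeMO libraries held 29451800 to 36375313 counts and the Sham libraries 27212499 to 33459048. Markers of bladder were present in every library: the summed CPM (counts relative to the TMM-adjusted size of the library) of 8 urothelial genes was 5060.1 to 7439 in NeMO and 6161 to 8075 in Sham, and that of 7 smooth muscle genes was 23555 to 44155 in NeMO and 27715 to 37115 in Sham. Counts of the 10 genes were between 569 and 8509 per library, which puts the counting error of a single value between 1.08% and 4.19%, below the spread between libraries of a group. In whole tissue, fewer cells of a type and less RNA per cell cannot be told apart.

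Skil was the member that differed most between the groups. Its level in the batch-adjusted fit was 1.41-fold higher in NeMO, every NeMO library lay above every Sham library, and DESeq2 called it, whereas edgeR's quasi-likelihood test did not. Smad6 and Id1 had the next smallest p-values, with lower NeMO means and overlapping libraries. The log2 fold changes (NeMO minus Sham) of Smad2, Smad3, Smad7 and Ski lay between −0.09 and 0.06. With edgeR's test and Benjamini-Hochberg adjustment over all genes, 0 of the 10 members passed an adjusted p of 0.05, where 0.0733% of all genes tested did. At an unadjusted p under 0.05 there was 1 member, Skil, against 18.5% of all genes. With limma-voom 0 members were called, where only 5 of all 16370 genes were. With DESeq2's Wald test 1 member was called, again Skil, against 6.32% of the genes with an adjusted p. The libraries of the 2 groups did not overlap for 1 of 10 members, against 8.19% of all genes. Of the members 5 were higher and 5 lower in NeMO, with a median log2 fold change of −0.03, and over all genes tested 7903 were higher and 8467 lower, with a median of −0.01. The members' counts were thus near the background in each of these readings.

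**Figure D1:**
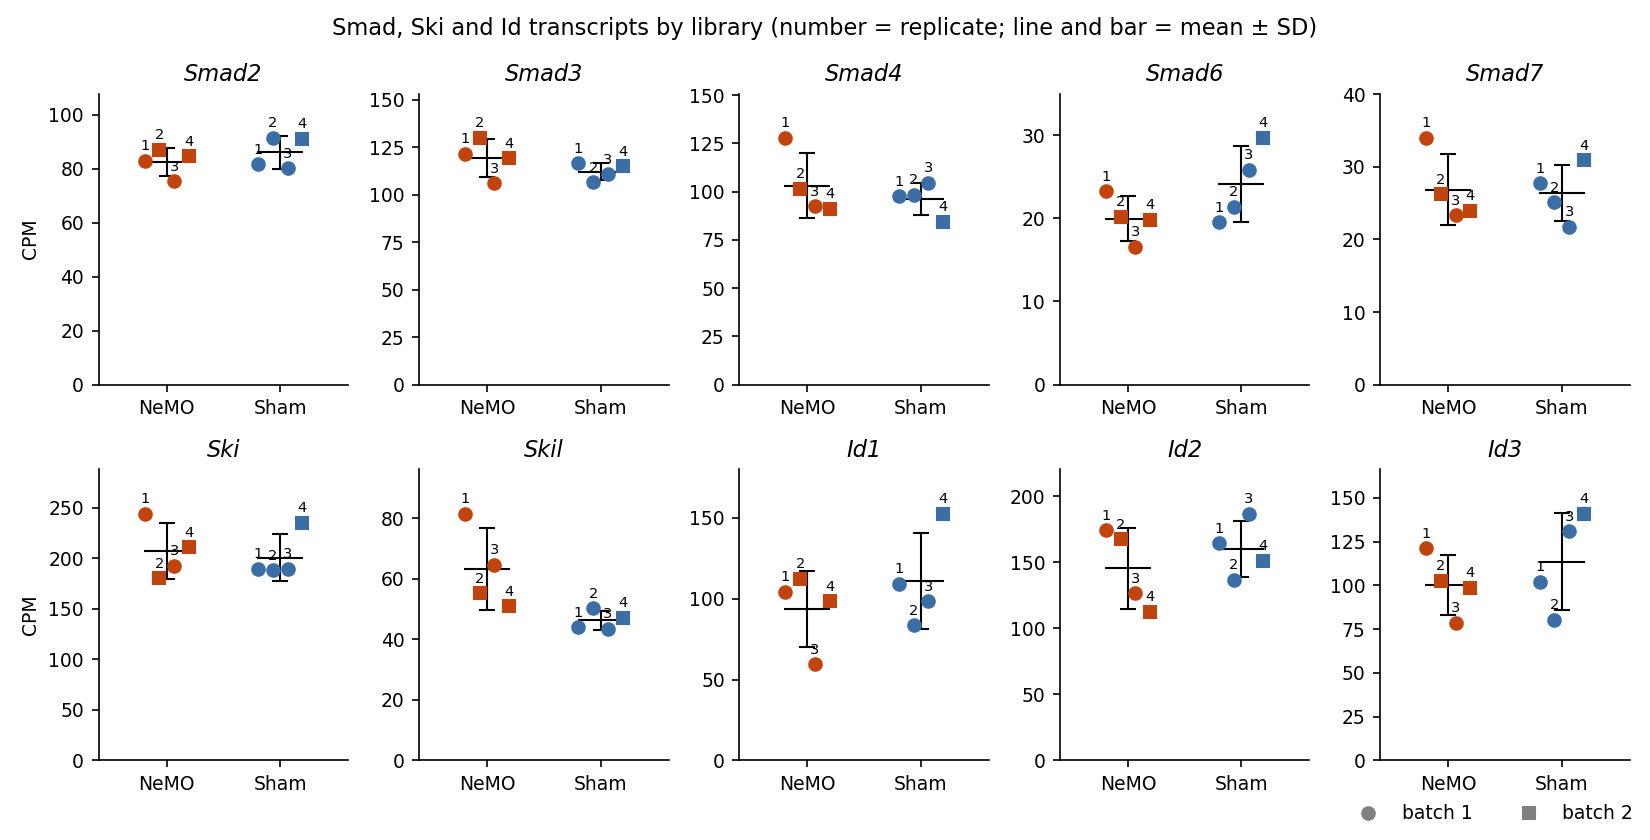
CPM (vertical axes, from 0) of the 10 genes in each NeMO and Sham library (horizontal axes); numbers are replicates, circles batch 1, squares batch 2, and black lines with bars the mean ± SD of 4 libraries. The 4 NeMO values of Skil, 51.1 to 81.5 CPM, lie above all 4 Sham values, and in the other 9 panels the groups overlap.

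Among the transducers, Smad2 measured 83.0, 87.0, 75.3 and 84.6 CPM in NeMO replicates 1 to 4, against 81.6, 91.4, 80.1 and 91.0 CPM in Sham replicates 1 to 4. The lowest value was that of NeMO replicate 3, and the other libraries of both groups shared one range. The log2 fold change was −0.09 (SE 0.07, 95% interval −0.25 to 0.07, edgeR adjusted p = 0.539), which leaves room for a level between 0.841-fold and 1.05-fold that of Sham. Smad3, which unlike the main form of Smad2 binds DNA directly, measured 122, 129.9, 106 and 119 CPM in NeMO, against 117, 106, 111 and 115 CPM in Sham. Here 3 NeMO libraries stood above all Sham libraries and NeMO replicate 3 stood below all of them. Its log2 fold change was 0.06 (SE 0.07, 95% interval −0.10 to 0.23, edgeR adjusted p = 0.693). Smad4, the partner that both branches of the pathway need, measured 128, 101, 92.4 and 91.1 CPM in NeMO and 97.5, 98.4, 105 and 84.4 CPM in Sham. NeMO replicate 1 was high, while the other 3 NeMO libraries lay within the Sham range. The difference was 0.16 (SE 0.10, 95% interval −0.08 to 0.39, edgeR adjusted p = 0.455), with 0.03 after NeMO replicate 1 was left out and 0.28 after NeMO replicate 3 was left out. Within a library the ratio of Smad3 to Smad2 in CPM per kilobase was 2.23 to 2.37 in NeMO and 1.85 to 2.26 in Sham, and this ratio was not tested.

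Of the inhibitory Smads, Smad6, which acts mainly on the BMP branch, measured 23.2, 20.2, 16.6 and 19.8 CPM in NeMO, against 19.5, 21.4, 25.8 and 29.7 CPM in Sham. The Sham values spread widely, from Sham replicate 1, inside the NeMO range, to Sham replicate 4, the highest of all 8. Smad6 averaged 19.95 ± 2.73 CPM in NeMO and 24.1 ± 4.56 CPM in Sham (SD, n = 4 each), with a log2 fold change of −0.31 (SE 0.14, 95% interval −0.63 to 0.02, edgeR adjusted p = 0.292). Without Sham replicate 4 this was −0.16, and without NeMO replicate 1 it was −0.49. Smad7, which blocks TGF-beta receptors and draws ubiquitin ligases to them, measured 34.0, 26.2, 23.3 and 23.97 CPM in NeMO and 27.7, 25.1, 21.7 and 30.9 CPM in Sham. NeMO replicate 1 was the highest library and Sham replicate 3 the lowest, with the rest mixed. Its log2 fold change was 0.02 (SE 0.15, 95% interval −0.32 to 0.37, edgeR adjusted p = 0.956). The values in the batches had opposite signs, 0.20 in batch 1 and −0.29 in batch 2, where Sham replicate 4 is the only Sham library. Per kilobase, the ratio of Smad7 to Smad6 was 0.857 to 1.04 in NeMO and 0.596 to 1.01 in Sham.

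The members Smad6, Id2 and Id3, genes that Smads are known to induce, have an entry among RefSeq promoter windows on GRCm38.p6, the assembly that mm10 names, and are shown for the Smad-type letters near their start sites. Each line runs from 250 bases before the annotated start to 20 bases after it, 5′ to 3′ on the gene's strand, and capitals mark the matches named in the text.
Smad6: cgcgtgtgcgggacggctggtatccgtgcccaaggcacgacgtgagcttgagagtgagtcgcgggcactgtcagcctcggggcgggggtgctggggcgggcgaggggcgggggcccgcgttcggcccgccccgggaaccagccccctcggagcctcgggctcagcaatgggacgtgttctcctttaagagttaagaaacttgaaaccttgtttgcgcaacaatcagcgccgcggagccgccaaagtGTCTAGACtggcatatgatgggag
Id2: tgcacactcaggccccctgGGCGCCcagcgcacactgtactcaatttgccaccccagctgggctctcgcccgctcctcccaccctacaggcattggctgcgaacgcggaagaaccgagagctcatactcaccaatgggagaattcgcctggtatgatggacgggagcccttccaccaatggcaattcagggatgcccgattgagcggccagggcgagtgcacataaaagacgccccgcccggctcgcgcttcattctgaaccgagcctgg
Id3: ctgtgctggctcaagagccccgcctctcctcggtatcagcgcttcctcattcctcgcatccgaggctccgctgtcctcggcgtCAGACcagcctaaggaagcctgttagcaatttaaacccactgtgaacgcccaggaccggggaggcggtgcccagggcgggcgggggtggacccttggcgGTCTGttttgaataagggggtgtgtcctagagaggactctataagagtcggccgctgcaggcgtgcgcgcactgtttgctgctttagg
These are chr9:64022040-64022309 (minus strand) for Smad6, chr12:25096073-25096342 (minus strand) for Id2 and chr4:136143572-136143841 (plus strand) for Id3. Windows of 300 bases were searched on both strands for the Smad palindrome GTCTAGAC, the shorter Smad-type letters CAGAC and the GC-rich letters GGCGCC, none of which overlapped another in these genes. The Smad6 window holds the palindrome across its start site, from 4 bases before to 4 bases after, and 0.213% of 32817 windows hold it. The Id2 window holds GGCGCC from base −231 to −226, as 11.9% of windows hold it. The Id3 window holds CAGAC or its reverse complement 2 times, starting at bases −167 and −68, and 49.6% of windows hold at least 1. The matches describe the letters only. Windows of 5 of the 10 members were found, the others being those of Smad3 and Ski, with 0 and 1 matches. The GENCODE models of Id2 and Id3 begin upstream of the RefSeq start used here.

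Among the repressors, Skil measured 81.5, 55.3, 64.8 and 51.1 CPM in NeMO replicates 1 to 4, against 44.0, 50.4, 43.6 and 47.2 CPM in Sham replicates 1 to 4. The groups did not overlap, but NeMO replicate 4 stood only just above Sham replicate 2, and NeMO replicate 1 stood well above the rest. Skil averaged 63.2 ± 13.5 CPM in NeMO and 46.3 ± 3.20 CPM in Sham (SD, n = 4 each). The log2 fold change was 0.49 (SE 0.12, 95% interval 0.22 to 0.76, edgeR unadjusted p = 0.00245, adjusted p = 0.106), the 377th smallest p of 16370. DESeq2 gave 0.50 with an adjusted p of 0.0152, and over all alternatives the adjusted p of Skil ran from 0.0152 to 0.728. It was 0.67 in batch 1 (edgeR adjusted p = 0.286) and 0.18 in batch 2 (edgeR adjusted p = 0.728), and 0.35 without NeMO replicate 1, positive in each of these. Ski, the prototype of the family, measured 243.9, 180.3, 193 and 211 CPM in NeMO, against 189.7, 188 and 189.5 CPM in Sham replicates 1 to 3 and 235 CPM in Sham replicate 4. Its extremes were both NeMO libraries, replicate 1 at the top and replicate 2 at the bottom. Ski had a log2 fold change of 0.04 (SE 0.12, 95% interval −0.22 to 0.30, edgeR adjusted p = 0.894). It was 0.21 in batch 1 and −0.26 in batch 2, where Sham replicate 4 is the only Sham library. The ratio of Skil to Ski per kilobase was 0.139 to 0.193 in NeMO and 0.115 to 0.154 in Sham, which overlap.

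The 3 Id genes all had lower means in NeMO, and none passed the test. Id1 measured 104, 113, 59.5 and 98.5 CPM in NeMO, against 109, 83.6, 98.6 and 153 CPM in Sham. NeMO replicate 3 was far below every other library and Sham replicate 4 far above. Id1 averaged 93.7 ± 23.6 CPM in NeMO and 111 ± 29.6 CPM in Sham (SD, n = 4 each), with a log2 fold change of −0.35 (SE 0.18, 95% interval −0.76 to 0.06, edgeR adjusted p = 0.337). Without NeMO replicate 1 it was −0.62 and passed (edgeR adjusted p = 0.0284, where 3.92% of all genes passed), and without NeMO replicate 3 it was −0.19; over all alternatives its adjusted p ran from 0.0284 to 0.749. Without NeMO replicate 1, the only NeMO library of batch 1 was replicate 3, the lowest in Id1. The only Sham library of batch 2 was replicate 4, the highest in Id1. With all libraries and no batch term, the log2 fold change of Id1 was −0.24 (SE 0.23, edgeR adjusted p = 0.668). The medians of Id1 were 101 CPM in NeMO and 104 CPM in Sham. Id3 measured 121, 103, 78.7 and 98.5 CPM in NeMO, against 102, 80.3, 131 and 141 CPM in Sham. As for Id1, NeMO replicate 3 was the lowest library and Sham replicate 4 the highest. The log2 fold change of Id3 was −0.22 (SE 0.19, 95% interval −0.66 to 0.22, edgeR adjusted p = 0.582), with −0.07 in batch 1 and −0.48 in batch 2, and −0.44 without NeMO replicate 1. Id2, which answers to TGF-beta as well as BMP signals in several cell types, measured 174, 168, 127 and 113 CPM in NeMO and 165, 137, 187 and 151 CPM in Sham. Its 2 lowest libraries were NeMO replicates 4 and 3, and its highest was Sham replicate 3 rather than replicate 4. The log2 fold change was −0.11 (SE 0.16, 95% interval −0.48 to 0.26, edgeR adjusted p = 0.756). The ratio of Id1 to Id3 per kilobase spanned nearly the same range in both groups, 1.17 to 1.69 in NeMO and 1.16 to 1.67 in Sham.

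Scaled by the length of annotated exons, the Id genes stood at the top of the set in both groups. Id1 had 80.8 ± 20.3 CPM per kilobase in NeMO and 95.7 ± 25.5 in Sham (SD, n = 4 each). Id2 had 59.6 ± 12.4 in NeMO and 65.6 ± 8.71 in Sham on the same scale, and Id3 had 56.0 ± 9.70 in NeMO and 63.4 ± 15.4 in Sham. The order of these 3 was not settled, since their ranges over the 8 libraries overlapped and Id3 moved ahead of Id2 when the longest transcript set the length. Ski followed at 37.2 ± 4.97 in NeMO and 36.1 ± 4.13 in Sham, below Id3 in 8 of 8 libraries. Smad4 came next at 27.8 ± 4.61 in NeMO and 25.9 ± 2.29 in Sham, then Smad3 at 21.5 ± 1.78 in NeMO and 20.2 ± 0.823 in Sham, and Smad2 at 9.39 ± 0.578 in NeMO and 9.80 ± 0.683 in Sham. By exon length each of these stood above the next in 8 of 8 libraries. At the bottom, Smad6 (6.22 ± 0.851 in NeMO, 7.52 ± 1.42 in Sham), Smad7 (5.94 ± 1.09 in NeMO, 5.83 ± 0.858 in Sham) and Skil (6.52 ± 1.40 in NeMO, 4.78 ± 0.330 in Sham) had overlapping ranges. The place of Skil depends on the length used, 9694 nucleotides of exons or 6717 in its longest transcript.

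**Figure D2:**
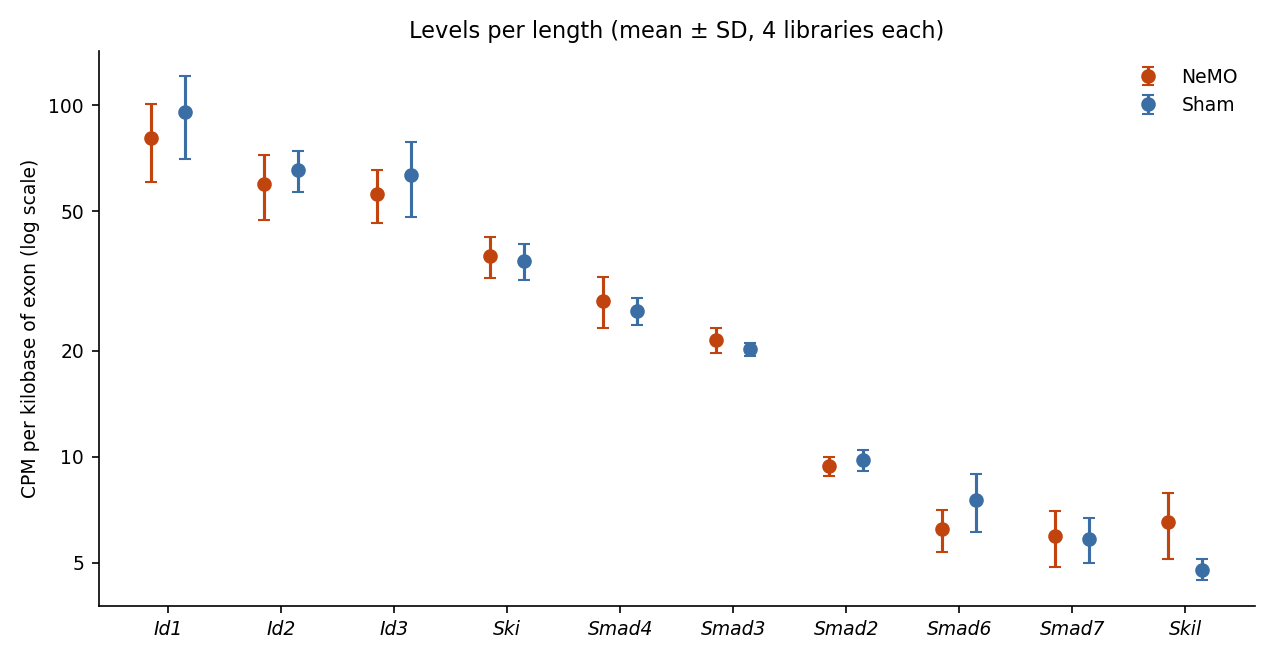
CPM per kilobase of annotated exon (vertical axis, log scale) for the 10 genes ordered by their mean over 8 libraries, with NeMO left of Sham; points are means and bars the SD of 4 libraries. Id1 stands highest at 80.8 in NeMO and 95.7 in Sham, and Smad6, Smad7 and Skil share the lowest levels.

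All 10 are protein-coding genes on mm10, and no exon of another GENCODE gene overlaps theirs on either strand. Smad3 (chromosome 9, 63646767 to 63757994, minus strand) and Smad6 (63953076 to 64022059, minus strand) are neighbours in this set on one chromosome. Smad2, Smad4 and Smad7 lie on chromosome 18, at 76241580 to 76310963, 73639009 to 73703780 and 75367529 to 75395935. Ski (155154075 to 155222592, minus strand) and Id3 (136143497 to 136145755) lie on chromosome 4, Skil on chromosome 3 (31095058 to 31122577), Id1 on chromosome 2 (152736251 to 152737410) and Id2 on chromosome 12 (25093799 to 25097140, minus strand). The counts are per symbol, so the isoforms of Smad2, Skil or Id1 are not resolved.

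Batch and transcript length moved with several of these differences. In batch 2, whose values rest on the single Sham replicate 4, Smad6, Id1 and Id3 stood at −0.56, −0.52 and −0.48, and in batch 1 at −0.16, −0.25 and −0.07. Sham replicate 4 had the highest Smad6, Id1 and Id3 of all 8 libraries. Across genes, the deviation of a library from each gene's mean was correlated with log transcript length. The correlation was positive in every NeMO library and negative in every Sham library, so it went with group. Within NeMO it was also larger in batch 1, while batch 2 of Sham is replicate 4 alone. In NeMO, r was 0.172 and 0.145 in replicates 1 and 3 of batch 1, and 0.0063 and 0.00801 in replicates 2 and 4 of batch 2. In Sham, r was −0.0157, −0.11 and −0.0549 in replicates 1 to 3 of batch 1, and −0.156 in replicate 4 of batch 2. These values describe libraries over genes that are not independent. The median log2 fold change of all tested genes went with length, from −0.16 in the shortest of 8 bins, which holds Id1 and Id3, to 0.16 in the longest, which holds Skil and Smad2. After the libraries' trends with length and GC content were removed, Skil stood at 0.35 (edgeR adjusted p = 0.343), Id1 at −0.18 (edgeR adjusted p = 0.726), Id3 at −0.05 (edgeR adjusted p = 0.938) and Smad2 at −0.24 (edgeR adjusted p = 0.264). Smad6 stood at −0.24 after the same correction, and Smad4 at 0.17. The trends were fitted to each library without a group term. The correction therefore also removes any group difference that goes with length or GC content, and these cannot be told apart here.

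**Figure D3:**
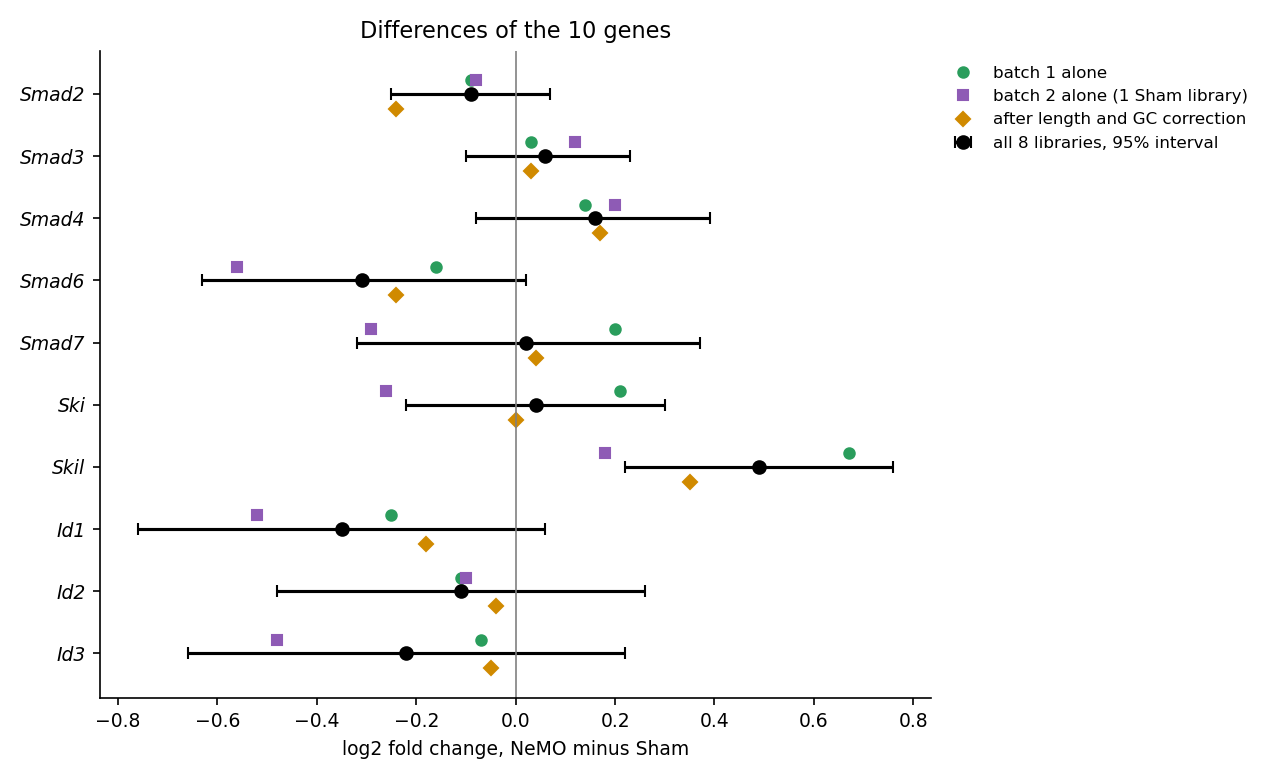
Log2 fold changes, NeMO minus Sham (horizontal axis), of the 10 genes: black points are the fit to all 8 libraries with its 95% interval, green circles batch 1 alone, purple squares batch 2 alone and orange diamonds the fit after length and GC correction. The interval of Skil, 0.22 to 0.76, is the one that does not include 0 before adjustment, and Smad7 and Ski take opposite signs in the batches. Sham replicate 4 is the only Sham library behind the batch 2 values.

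**Figure D4:**
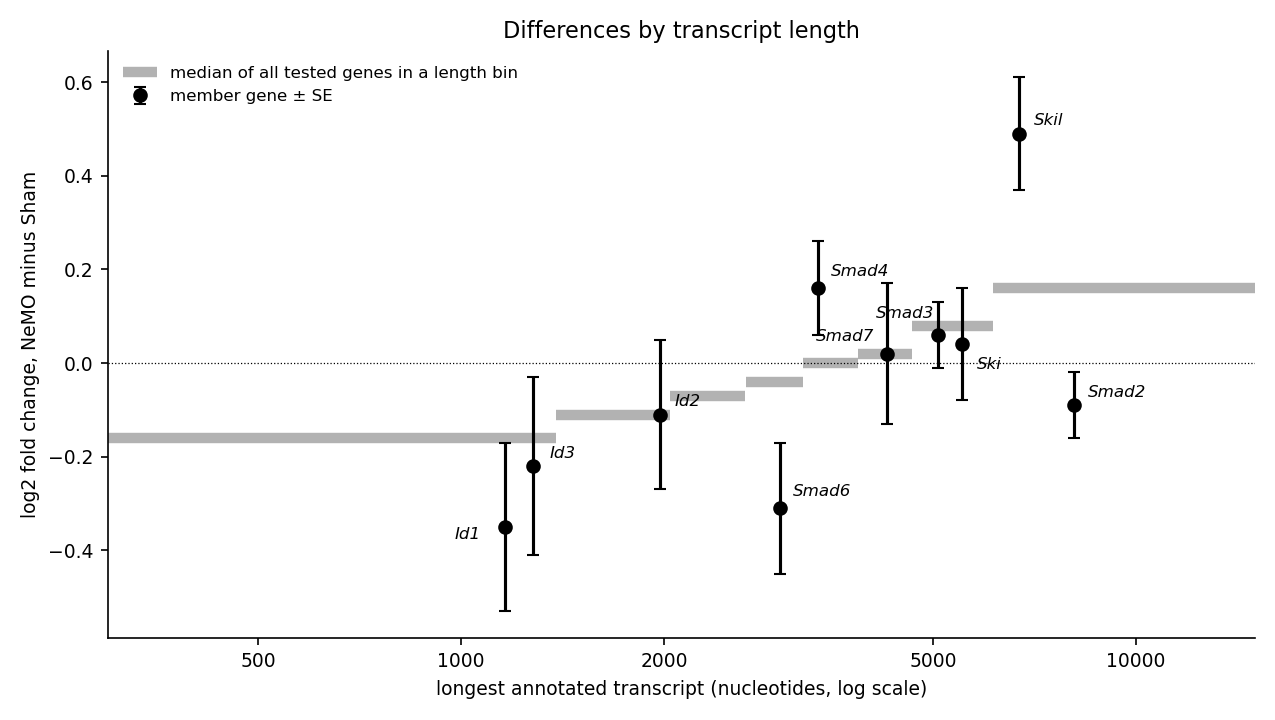
Log2 fold change, NeMO minus Sham (vertical axis), against the longest annotated transcript (horizontal axis, log scale, drawn from 300 to 15000 nucleotides): grey bars are medians of all tested genes in 8 length bins and black points the 10 members ± SE. The medians run from −0.16 to 0.16, with the Id genes among the short transcripts and Skil and Smad2 among the longest.

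Marker genes of several cell types moved beside these values. NeMO replicate 3, lowest in Smad2, Smad3, Smad6, Id1 and Id3, had the largest summed CPM of 6 fibroblast markers, 19758, where the other NeMO libraries had 7828 to 12080 and the Sham libraries 8055 to 10930. It also had the largest sum of 7 endothelial markers, 562, against 331 to 473 in the other NeMO libraries and 373 to 455 in Sham, and the smallest smooth muscle sum, 23555. The adipocyte, nerve and Schwann cell, and mesothelial sums of NeMO replicate 3 were the smallest as well, at 336, 290 and 255. Sham replicate 4, highest in Smad6, Id1 and Id3, had the largest sum of 6 adipocyte markers, 2501, against 336 to 1100.0 in NeMO and 862 to 1404 in the other Sham libraries, and also the largest urothelial sum, 8075, and the largest nerve and Schwann cell sum, 510.3. NeMO replicate 1, highest in Smad4, Smad7, Ski and Skil, had the largest smooth muscle sum, 44155, and the smallest urothelial sum, 5060.1. Nerve and Schwann cell markers summed to 290 to 474 in NeMO and 439 to 510.3 in Sham, immune cell markers to 122 to 279 in NeMO and 202 to 311 in Sham, and mesothelial markers to 255 to 389 in NeMO and 331 to 594 in Sham. By fitted log2 fold change 0 of 6 adipocyte markers, 1 of 8 urothelial markers and 0 of 6 nerve and Schwann cell markers were higher in NeMO, against 7 of 7 endothelial, 5 of 6 fibroblast, 3 of 7 smooth muscle, 2 of 6 immune cell and 2 of 4 mesothelial markers. By mean CPM without the batch term, the counts were 6 of 7 for endothelial, 3 of 6 for fibroblast, 4 of 7 for smooth muscle, 1 of 6 for immune cell and 1 of 4 for mesothelial markers, and 1 of 6 for nerve and Schwann cell markers. Of the 8 sums the adipocyte one had the smallest two-sided exact permutation p, 0.0571 (0.342 adjusted over 8), and no marker was at 0 in all libraries. The part of these markers in the member values was not tested.

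**Figure D5:**
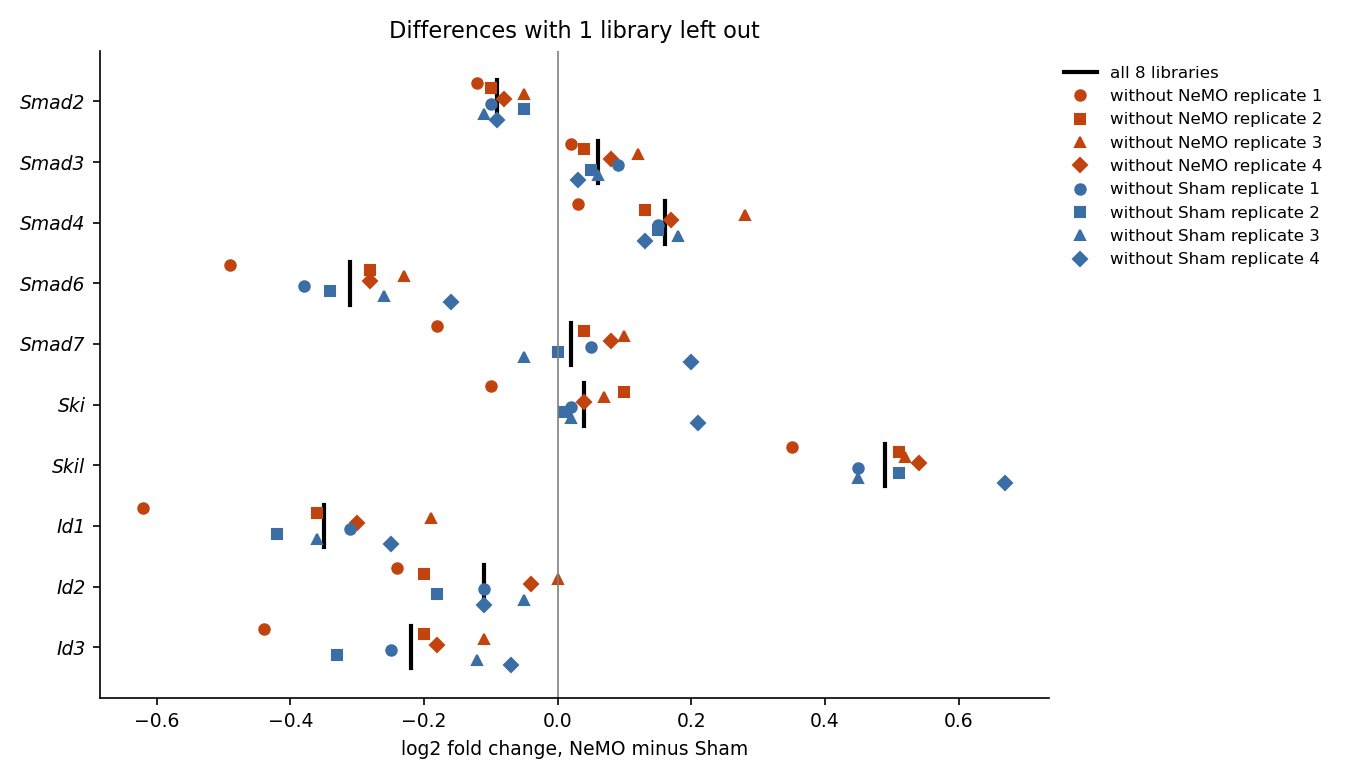
Log2 fold changes, NeMO minus Sham (horizontal axis), of the 10 genes with 1 library left out at a time (orange for a NeMO library, blue for a Sham library) and with all 8 (black bar). Id1 runs from −0.62 without NeMO replicate 1 to −0.19 without NeMO replicate 3, and Skil stays between 0.35 and 0.67.

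Around the 10 genes, other parts of the pathway were read from lists, in which a gene may stand more than once. These lists were also chosen with earlier results of these data known. None of their members passed edgeR's test over all genes, where 12 genes passed. The background for the counts that follow is that 7903 of 16370 tested genes were higher in NeMO. An unadjusted p under 0.05 was found for 18.5% of them, in either direction. This background takes no account of transcript length, although the bin of longest transcripts had a median of 0.16 and that of shortest ones −0.16. The list values are given without the length and GC correction, and the part of length in them was not tested. The Smads of the BMP branch, Smad1, Smad5 and Smad9, had 2 of 3 members higher in NeMO, with a median log2 fold change of 0.21, and Smad5 was the 1 with an unadjusted p under 0.05 (109.95 ± 9.63 CPM in NeMO and 94.2 ± 4.79 CPM in Sham, a difference of 0.25, edgeR adjusted p = 0.136). Id4, the remaining Id gene, measured 111 ± 11.03 CPM in NeMO and 91.9 ± 9.58 in Sham (0.26, edgeR adjusted p = 0.213), on the other side of 0 from Id1, Id2 and Id3. Of 3 E proteins that Id proteins bind, 2 were higher and 1 was lower, with a median of 0.15 and 1 at an unadjusted p under 0.05; Tcf4 stood at 0.33 (edgeR adjusted p = 0.171) and Tcf12 at 0.15 (edgeR adjusted p = 0.313).

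Of 11 type I and type II receptors 10 were higher and 3 had an unadjusted p under 0.05 (18.5% of all genes), with a median of 0.15, led by the TGF-beta receptor gene Tgfbr1 (121 ± 21.5 CPM in NeMO and 90.5 ± 11.3 in Sham, 0.49, edgeR adjusted p = 0.087) and the BMP receptor gene Bmpr1b (0.90, edgeR adjusted p = 0.125). Of 14 regulators of Smads 11 were higher and 5 had an unadjusted p under 0.05 (18.5% of all genes), with a median of 0.15. Ldlrad4, whose product keeps Smads from the receptor, measured 18.7 ± 3.14 CPM in NeMO and 10.4 ± 1.94 in Sham (0.89, edgeR adjusted p = 0.073), and Smurf2, a ubiquitin ligase of the pathway, 102 ± 7.43 in NeMO and 83.6 ± 3.54 in Sham (0.30, edgeR adjusted p = 0.109). Of 10 tested coactivators and corepressors 9 were higher and 6 had an unadjusted p under 0.05 (again beside 18.5% of all genes), with a median of 0.21. The list included the acetyltransferase genes Crebbp (0.34, edgeR adjusted p = 0.109) and Ep300 (0.35, edgeR adjusted p = 0.124). Neither this list nor those of receptors and regulators was set against genes of similar transcript length.

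The 2 lists of target genes differed in their medians. Of 14 TGF-beta and activin targets 11 were higher, 5 of them at an unadjusted p under 0.05 (18.5% of all genes in either direction), with a median of 0.41. The smallest p-values there were those of the matrix genes Fn1 (1.45, edgeR adjusted p = 0.0691) and Postn (0.63, edgeR adjusted p = 0.0972). Of 11 BMP targets 5 were higher and 6 lower, of which 2 higher and 1 lower had an unadjusted p under 0.05, with a median of −0.17, and the smallest p-values were those of the homeobox gene Msx2 (27.8 ± 7.20 CPM in NeMO and 33.5 ± 3.74 in Sham, −0.40, edgeR adjusted p = 0.133) and the BMP antagonist gene Grem1 (22.8 ± 35.1 CPM in NeMO and 0.638 ± 0.443 CPM in Sham, 5.45, SE 1.49, edgeR adjusted p = 0.149). For Grem1 the SD among NeMO libraries exceeded their mean, and the Sham level was very low. Whether the lists differ from each other was not tested. Id1, Id2 and Id3 are known targets of the same BMP branch and are not counted in that list.

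The genes whose deviations from the group means most resembled those of a member over the 8 libraries were, for Skil, Rnf141, Pgam1 and Map4k3 (Pearson r = 0.991, 0.984 and 0.974). For Id1 they were Ppp1r13b, Cluh and Dedd (r = 0.983, 0.982 and 0.979), and for Id3 Pitpnm2, Kat8 and Ppapdc3 (r = 0.989, 0.977 and 0.975). For Smad6 they were Narfl, Ddit3 and Nrn1 (r = 0.994, 0.987 and 0.980). For the other members the closest genes were Kbtbd13 for Smad2 (r = 0.992), Prpf6 for Smad3 (0.993), Ppp3cb for Smad4 (0.992), Bai1 for Smad7 (0.972), Rab11fip3 for Ski (0.984) and Tmem25 for Id2 (0.982). With 8 libraries and 13172 genes searched, values of this size are a description of these libraries. No member was among the 3 genes closest to another. The closest pairs of members were Smad6 with Id3 and Smad3 with Id1 (r = 0.87 each), followed by Id1 with Id3 (0.78). Many other genes were closer: Id3 ranked 134th for Smad6 and Smad6 63rd for Id3, while Id1 ranked 82nd for Smad3 and Smad3 124th for Id1. The deviations were not adjusted for batch.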

How the data were processed

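The authors deposited raw counts for each gene symbol, with a file for each library. Per the submitters' processing notes, the tools were Trimmomatic, STAR, featureCounts and DESeq2, on the mm10 build. The annotation, the strand setting and the rule for multi-mapping reads were not given in the sources used here. The tests were run in R 4.3.3 using edgeR 4.0.16 (filterByExpr, minimum count 10 and total 15, which left 16370 genes; TMM; quasi-likelihood F-test, robust, two-sided, with batch and group as terms; Benjamini-Hochberg over all genes, threshold 0.05), with limma 3.58.1 (voom) and DESeq2 1.42.0 as alternatives. CPM are relative to the TMM-adjusted size of a library. The code was tested on simulated data. Lengths, GC content and positions come from GENCODE M21, which covered 98.9% of the genes tested; promoter windows come from RefSeq.

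The members and lists were chosen with earlier results of these data known. The rule named all 10 members, the 2 smallest p of each pathway list, and the 3 genes most like each member by correlation of log2 CPM deviations from group means. Ranges of deviations, ratios and positions were chosen for description after the values were seen. Library pairs within a group differed by more than sampling noise. At 27212499 to 36375313 counts per library, spread between libraries and not depth limits the precision.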

Additional observations from a re-analysis of the deposited data

Results flagged for a closer look

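Within the Sham group, Ski stood apart in replicate 4, at 235 CPM, where the other 3 Sham libraries lay between 188 and 189.7 CPM. The gap to the nearest of them was 0.967 of the range of the group. This was the 1 departure of this kind among 36 groups of 4 looked at (the 10 members and 8 marker sums in NeMO and in Sham), where chance gives about 1 in 20. Sham replicate 4 is also the one Sham library of batch 2, and without it the log2 fold change of Ski was 0.21.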

How the results depend on the processing

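Of 180 values, the log2 fold changes of the 10 members under 18 alternatives, 172 kept their direction and side of the threshold, 2 passed it and 6 changed sign. Those that passed were Skil with DESeq2 and Id1 without NeMO replicate 1. Sign changes concerned genes near 0: Smad7 (−0.29 in batch 2 alone, −0.18 without NeMO replicate 1, −0.05 without Sham replicate 3; leaving out 1 library at a time, −0.18 to 0.20), Ski (−0.26 in batch 2 alone, −0.10 without NeMO replicate 1; −0.10 to 0.21 likewise) and Id2 (0.00 without NeMO replicate 3; −0.24 to 0.00 likewise); the cause was not tested. The number of members called was 0 in edgeR, 1 with DESeq2, and 0 to 1 when 1 library was left out. The number of genes called was 12, against 953 with DESeq2, 5 with limma-voom, 172 with no filter on low counts, 7 without the batch term, 0 in batch 1 alone, 7 in batch 2 alone and 0 to 652 when 1 library was left out (652 without NeMO replicate 1, 0 without NeMO replicate 4 or Sham replicate 4). Without Sham replicate 4 the group contrast rests on batch 1.

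Replicate numbers were not treated as pairs in the main fit. Deviations of same-numbered libraries correlated at −0.00958, 0.082, 0.0438 and 0.324, and 2 of 4 NeMO libraries correlated best with their own number. These deviations were not adjusted for batch, and with 4 numbers they cannot settle whether libraries were paired. With the replicate number added as a block to the batch term, 2 genes and 0 members were called, and Id2 stood at −0.30, Id3 at −0.34 and Id1 at −0.48.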
